A study of Drosophila melanogaster with 6 samples.

Results

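RNA purified from larvae whose multidendritic (md) sensory neurons tag their RNA was set against RNA that went through the same purification without a tag. In EC-tagging, Gal4 drives a fusion of cytosine deaminase with uracil phosphoribosyltransferase (CD:UPRT) in chosen cells, where it converts fed 5-ethynylcytosine (5EC) into a nucleotide that enters new RNA. Biotin is then attached to the ethynyl group by click chemistry and the RNA is captured on streptavidin beads. Untagged RNA also sticks to beads, and the mock purification measures that background. The md neurons lie under the larval epidermis and on the body wall muscles, and their dendrites sense touch, heat and stretch.

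EC-RNA came from early L3 larvae that carried 109(2)80-Gal4 together with UAS-CD:UPRT and were fed 5EC for 12 h. The 109(2)80 driver is active in md neurons and also in part of the central nervous system, which was dissected away, so the input was RNA of pooled carcasses in which md neurons are a small part. Mock-RNA came from early L3 carcasses that carried UAS-CD:UPRT with no Gal4 and were fed no analog. Both groups therefore carry the transgene, and the effects of driver and feeding cannot be told apart. Each group had 2 libraries, prepared from separately fed and dissected larvae, and duplicate RNA preparations were combined for each library. The comparison used 4 of the 6 libraries of the study, and the other 2 (ref-RNA, tagged in all carcass cells by feeding 5-ethynyluridine, which needs no CD:UPRT) appear only as side values. Of the 14240 genes listed, 6545 were above 0 in at least 1 of the 4 libraries. Levels are in TPM, an abundance corrected for transcript length and scaled to the same total in each library. Genes were sorted by level. A gene was taken as present in EC-RNA and low in mock-RNA where it held at least 10 TPM in both EC-RNA libraries and at most 1 TPM in both mock-RNA libraries, and the reverse class used the same limits the other way round.

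The table held TPM and no counts, but the low values fell on steps that gave back the reads. For genes with 1 annotated transcript, the TPM multiplied by the transcript length less 199 bases clustered at whole multiples of 1 amount in each library, taken as 1 read. Between 93.7% and 95.6% of the values under 10 reads lay within 0.05 of a whole number in the EC-RNA and mock-RNA libraries. The reads estimated in this way summed to 2.65e+06 and 7.65e+06 in EC-RNA 1 and 2, and to 126913 and 104887 in mock-RNA 1 and 2. On a transcript of 1 kb after that subtraction, 1 read was worth 0.560 and 0.206 TPM in EC-RNA but 11.6 and 21.1 TPM in mock-RNA. A read in mock-RNA 1 therefore carried 20.7 times the TPM of a read in EC-RNA 1, and the ratio was 102 for the second libraries.

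This step size decides what a listed value can mean. In mock-RNA 1, 53.6% of the 2158 genes above 0 with a usable length rested on at most 1 read, and in mock-RNA 2 this held for 57.0% of 1794 genes. At most 3 reads lay behind 76.9% and 79.1% of the mock-RNA genes. EC-RNA had both kinds of gene in quantity. At most 3 reads were found for 52.1% and 41.9% of its listed genes, and at least 100 reads for 27.4% and 42.8%. Reads carried no molecular identifiers, so they are not independent molecules, and limits drawn from them cover counting error only.

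**Figure D1:**
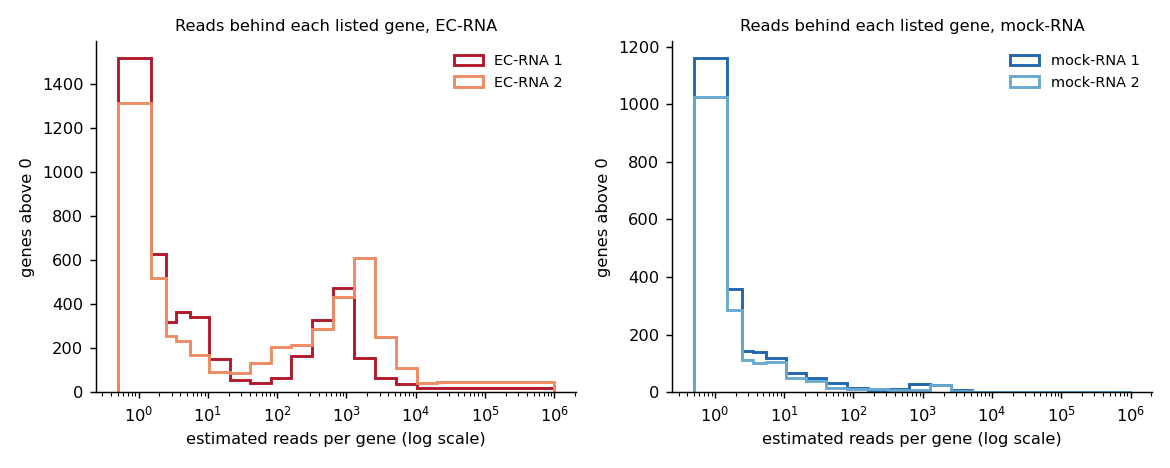
Genes above 0 (y axis) by their estimated reads (x axis, log scale) in the 2 EC-RNA libraries (left) and the 2 mock-RNA libraries (right), after rounding to whole reads. The last bin is wider than the others. EC-RNA shows a peak at 1 read and another near 1000 reads, while most mock-RNA genes (76.9% and 79.1%) have at most 3 reads.

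Replicates of each group differed far more in these libraries than in ref-RNA. Of 2679 genes with at least 100 reads in either EC-RNA library, 46.3% had at most 3 reads in the other, and the share was 43.5% of 124 genes in mock-RNA and 5.45% of 8899 genes in ref-RNA. On the TPM scale, 57.7% of the genes above 0 in either EC-RNA library were above 0 in both, against 36.0% in mock-RNA and 83.6% in ref-RNA. In all, 799 genes reached 10 TPM in both EC-RNA libraries and 520 did in both mock-RNA libraries. The 249 genes in both sets were 31.2% of the first and 47.9% of the second.

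Genes of the mitochondrial genome took a larger share of TPM in EC-RNA than in mock-RNA. This genome encodes subunits of the respiratory chain, and its transcripts took 39.1% and 31.1% of all TPM in the EC-RNA libraries, 3.87% and 1.42% in the mock-RNA libraries, and 24.2% and 25.0% in ref-RNA. Over all genes, limma on log2(TPM + 1) called 15 of 4096 genes tested at an adjusted p below 0.05 and at least 2-fold, which is 0.366%. Of these, 14 were higher in EC-RNA (0.342%) and 1 was lower (0.0244%), and 7 of the 14 were mitochondrially encoded, out of 12 such genes tested. The median log2 difference of the 12 was 6.46, and of the alternatives run it turned, to -0.13, only where the most abundant genes were left out, with 4 of the 12 remaining.

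The NADH dehydrogenase subunit gene mt:ND1 (mitochondrial genome, 11721 to 12659, minus strand) held 79107 and 64733 TPM in EC-RNA and 157 and 285 TPM in mock-RNA. The mock-RNA values rested on 10 reads in each library, and both lay far below both EC-RNA values. The ratio of the mean TPM was 326, and the log2 difference was 8.40 ± 0.80 (SE, n = 2 per group, adjusted p = 0.0334 by limma). For the cytochrome b gene mt:Cyt-b (10499 to 11635), EC-RNA held 33608 and 28205 TPM and mock-RNA 136 and 112 TPM, on 11 and 5 reads. Its log2 difference was 7.95 ± 0.79.

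The cytochrome oxidase genes gave the same picture. mt:CoIII (4736 to 5524) held 136250 and 90797 TPM in EC-RNA and 591 and 1143 TPM in mock-RNA, a log2 difference of 7.08 ± 0.79. mt:CoI (1474 to 3009) held 61362 and 47446 TPM against 600 and 741 TPM, a log2 difference of 6.34 ± 0.75. The groups did not overlap for either gene, and mt:CoII, mt:ND4 and mt:ND6 passed the test as well. The exceptions were members with 1 high mock-RNA library or few reads. The ATP synthase subunit gene mt:ATPase6 held 20857 and 22969 TPM in EC-RNA and 36208 and 310 TPM in mock-RNA, so the groups overlapped. mt:ND2 ran the other way, at 0.678 and 0.996 TPM in EC-RNA and 14.1 and 51.0 TPM in mock-RNA, where these values stand for 1 and 2 reads.

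With 2 libraries a group, an exact two-sided permutation test of a single gene cannot go below p = 0.333, so every call rests on the spread that limma pools across genes. All 15 calls were lost on leaving out mock-RNA 1 or mock-RNA 2, where 0 genes passed (267 higher and 415 lower at an unadjusted p below 0.05 without mock-RNA 1, 287 and 559 without mock-RNA 2). Without EC-RNA 1, 940 genes passed as higher and 60 as lower, and without EC-RNA 2, 509 and 39, with 12 and 9 of the 15 calls kept. In each of these fits the group left with 1 library is assumed to vary like the other group, which alone gives the spread. The median log2 difference of the mitochondrially encoded genes lay between 6.43 and 6.99 over the 4 fits that left out 1 library. They were also lost when limma was run with voom weights on the estimated reads, where 0 of 3264 genes passed (242 higher and 34 lower unadjusted) and the smallest adjusted p was 0.559. The median gene tested was 1.91 higher in EC-RNA on the log2 scale, a shift that the scaling moved between 0.44 and 2.18. It was 0.39 with no filter on low values, 3.18 where the filter was raised to 10 TPM and 2.82 with a pseudocount of 0.1, and it turned to -0.67 without EC-RNA 2, so the reference for each difference is itself not fixed.

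The class present in EC-RNA and low in mock-RNA held 160 of the 6545 genes above 0 in any of the 4 libraries. All 160 were listed at 0 in both mock-RNA libraries. Their median level was 153 TPM in EC-RNA and 80.7 TPM in ref-RNA, and 154 of them (96.3%) held at least 10 TPM in both ref-RNA libraries. The class is set by the values compared, so its size is a description and carries no test. A blank in mock-RNA allows up to 3 reads, and for 129 of the 158 genes with a usable length (81.6%) each EC-RNA library exceeded what 3 reads would give in either mock-RNA library. Against that floor in each library, the mean EC-RNA level was higher by a median of at least 7.41-fold, with bounds from 0.225 to 104 over the class. Just inside the limit were CG4080, at 12.9 and 10.5 TPM in EC-RNA, and Kah, at 198 and 10.5 TPM. Just outside were CG30460, at 46.8 and 9.84 TPM, and Daxx, at 116 and 9.79 TPM.

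Of the 12 highest genes of this class, 3 were fat body genes. The fat body is the larval storage organ, and it secretes the larval serum proteins into the hemolymph. Lsp1alpha, a larval serum protein gene (X, 12490291 to 12492982), held 1473 and 2746 TPM in EC-RNA on 6378 and 32355 reads and was listed at 0 in both mock-RNA libraries. Lsp2, another of them (3L, 12129393 to 12131869), held 1411 and 1949 TPM and was likewise listed at 0. Both mock-RNA libraries were thus empty for genes with at least 5738 reads in each EC-RNA library, and the mean EC-RNA level was at least 104-fold higher for Lsp1alpha and at least 78.0-fold higher for Lsp2 than 3 reads in each mock-RNA library would give. Both passed the test (adjusted p = 0.0334, limma), as did the fat body protein gene Fbp2, with 1052 and 1889 TPM in EC-RNA (adjusted p = 0.0383).

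Of the 12 fat body genes listed, 5 were in the class (160 of all 6545 genes above 0). Of the list, 9 were tested and 3 passed (15 of all 4096 genes tested). In 8 of the 9 (88.9%), both EC-RNA values exceeded both mock-RNA values, which held for 33.9% of all genes tested. This count, here and for the other lists, places a blank in mock-RNA below any EC-RNA value, with no allowance for the 3-read floor. The median log2 difference of the 9 was 7.74 against 1.91 for all genes tested. Lsp1gamma held 2758 and 3525 TPM in EC-RNA, against a blank and 18.3 TPM, or 2 reads, in mock-RNA. Lsp1beta, the third of the Lsp1 genes, held 2215 and 3701 TPM in EC-RNA and 43.5 and 237 TPM in mock-RNA. Ref-RNA held these genes as well, at 1573 and 6222 TPM for Lsp1alpha and at 2124 and 8623 TPM for Lsp2. As the 3 Lsp1 genes are related in sequence, reads may be divided among them.

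The other genes of the class with the highest values in both EC-RNA libraries came from no single list. CG34166, a gene with no role given here (2L, 14743193 to 14743879), was highest at 1627 and 3944 TPM. The ciboulot gene cib, whose product binds actin (X, 4106113 to 4110981), held 2225 and 1312 TPM in EC-RNA, and Ubc6, which encodes a ubiquitin-conjugating enzyme (3R, 4948755 to 4952682), held 1455 and 1300 TPM. All 3 passed the test (adjusted p = 0.0334 for CG34166 and cib and 0.0383 for Ubc6, limma) and were listed at 0 in mock-RNA. The complex I subunit gene ND-B17.2 held 1083 and 871 TPM in EC-RNA (adjusted p = 0.0590) and the proteasome subunit gene Prosbeta4 held 593 and 462 TPM (adjusted p = 0.0958), and neither passed. Against 3 reads in each mock-RNA library, the mean EC-RNA level was at least 47.0-fold higher for cib, 55.2-fold for Ubc6, 9.52-fold for ND-B17.2 and 6.63-fold for Prosbeta4. The remaining members among the 12 highest, CG17107, CG33129, CG32280 and mt:ND6, held from 398 TPM to 1963 TPM in EC-RNA.

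**Figure D2:**
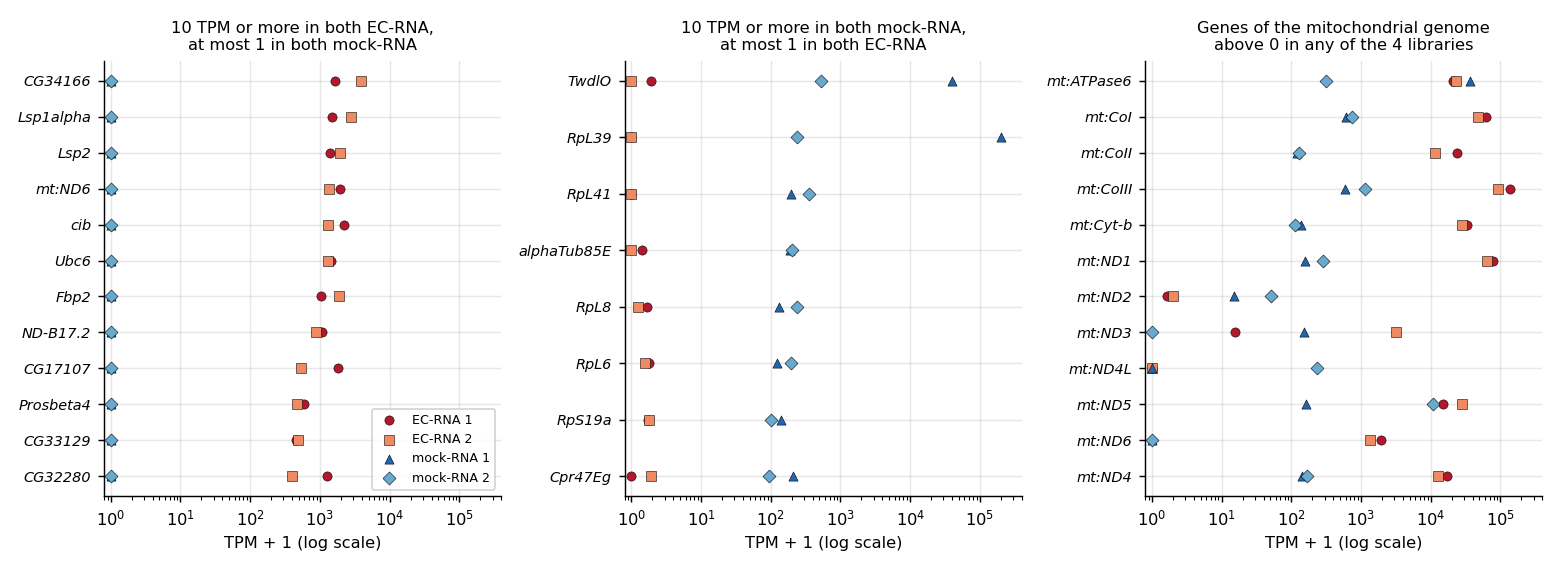
TPM + 1 (x axis, log scale) in each EC-RNA and mock-RNA library for the 12 highest genes present in EC-RNA only (left), the 8 highest genes present in mock-RNA only (middle) and 12 genes of the mitochondrial genome (right). Blank values sit at 1, and mt:ATPase6 and mt:ND5 show 1 mock-RNA library near or above the EC-RNA values.

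The class present in mock-RNA and low in EC-RNA was smaller, with 56 of the 6545 genes, and most of it rested on few reads. No more than 3 reads in either mock-RNA library stood behind 26 of them, and 6 genes had at least 10 reads in both. Only 16 were blank in both EC-RNA libraries, and 41 had at most 3 reads in each. The median level was 36.4 TPM in mock-RNA and 28.7 TPM in ref-RNA, and 34 (60.7%) held at least 10 TPM in both ref-RNA libraries. Their longest transcripts had a median of 1420.5 bases, against 2679 bases for the class present in EC-RNA. A shorter transcript turns 1 read into more TPM, and the part of length in this class was not tested. None of the 56 passed the limma test. At the limit, ArfGAP3 (11.1 and 21.2 TPM in mock-RNA) and kek1 (25.0 and 11.3 TPM) were just inside, and CG7414 (21.9 and 9.94 TPM) and Spn42Da (9.92 and 18.0 TPM) just outside.

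In RpL39 the TPM of 1 read was largest among the 8 highest genes of this class. The gene for a protein of the large ribosomal subunit has a transcript of 288 bases, and it was listed at 203839 TPM in mock-RNA 1 and 237 TPM in mock-RNA 2. The first value stands for 1561 reads and the second for 1 read, and RpL39 was listed at 0 in both EC-RNA and both ref-RNA libraries. TwdlO, a Tweedle cuticle protein gene (3R, 26625932 to 26626738), held 0.922 TPM and a blank in EC-RNA and 39529 and 520 TPM in mock-RNA, on 2068 and 15 reads. The alpha-tubulin gene alphaTub85E (3R, 9731221 to 9733250) was the even case, at 188 and 201 TPM in mock-RNA on 22 and 13 reads, against 1 read and none in EC-RNA. RpL41, RpL8, RpL6, RpS19a and the cuticle gene Cpr47Eg made up the rest of the 8 highest, with 9 reads at most in any mock-RNA library.

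Ribosomal protein genes had higher values in mock-RNA than in EC-RNA for the median member. These genes encode the proteins of the cytoplasmic ribosome and are transcribed in every cell. Of 92 such genes, 8 were in the class present in mock-RNA and low in EC-RNA (56 of all 6545 genes above 0). In the opposite class (160 of 6545) there were 0, and 13 held 10 TPM in all 4 libraries (249 of 6545). With a median length of 877 bases, every member above 0 in mock-RNA 1 and 2 (78 and 68 genes) also held at least 10 TPM there. The part of length in these counts was not tested. Both EC-RNA values lay below both mock-RNA values in 27 of 82 tested (32.9%), against 8.57% of all genes tested, and above them in 11 (13.4%, against 33.9%). The 8 members of the mock-RNA class passed the filter on mean TPM only through mock-RNA. The median member held 3.21 and 12.0 TPM in EC-RNA, 78.6 and 97.9 TPM in mock-RNA, and 147 and 156 TPM in ref-RNA. In reads, the median member had 3 and 46 in EC-RNA and 3 and 2 in mock-RNA. No member passed the test.

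The median log2 difference of the ribosomal protein genes was -1.86, against 1.91 for all genes tested, and it kept its sign under quantile normalization, median-of-ratios scaling and the removal of mitochondrially encoded or the most abundant genes but turned to 0.13 without EC-RNA 1. It was -4.16 without EC-RNA 2 and -0.38 over 61 genes with voom weights on the estimated reads. The group's total did not differ in the same way. It took 1.25% and 2.94% of TPM in EC-RNA and 24.9% and 2.13% in mock-RNA, and without RpL39 and RpS7, the latter at 25307 TPM in mock-RNA 1, the remaining 90 genes summed to 12467 and 28111 TPM in EC-RNA and 16717 and 20100 TPM in mock-RNA. Of the 4 members with at least 10 reads in both mock-RNA libraries, RpS27A was the highest in mock-RNA 2. It encodes a ribosomal protein fused to ubiquitin, and its levels were 2.85 and 44.0 TPM with EC tagging against 7511 and 8688 TPM in mock-RNA (254 and 162 reads). RpL40, the other ubiquitin fusion, held 11.6 and 43.5 TPM in EC-RNA and 1289 and 1741 TPM in mock-RNA. Neither passed (adjusted p = 0.0590 for RpS27A and 0.112 for RpL40, limma), and reads of their ubiquitin part may be shared with other ubiquitin genes.

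**Figure D3:**
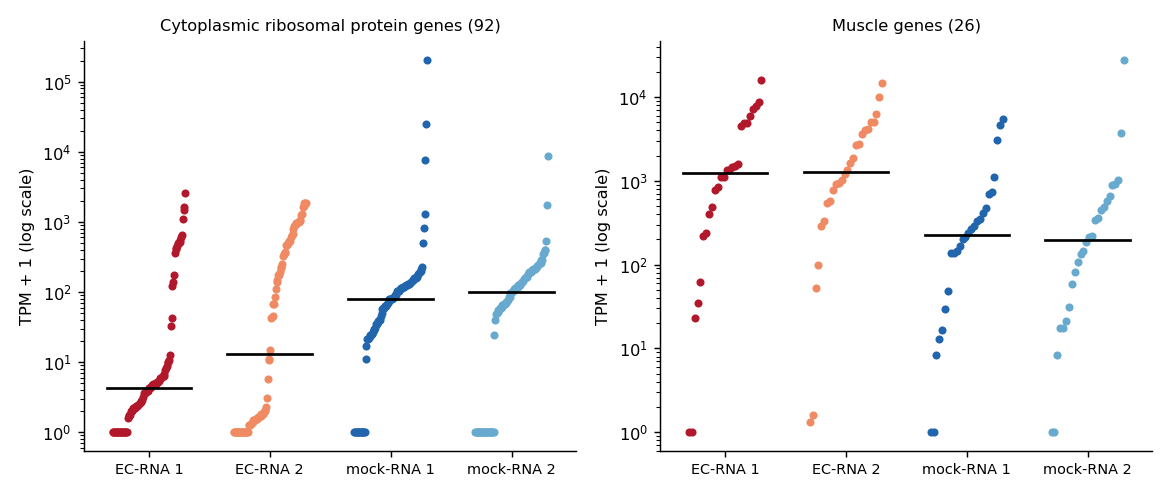
TPM + 1 (y axis, log scale) of each cytoplasmic ribosomal protein gene (left, 92 genes) and each muscle gene (right, 26 genes) in the 4 libraries, with points sorted by value and the black line at the median. Ribosomal protein medians are higher in both mock-RNA libraries (78.6 and 97.9 TPM) than in EC-RNA (3.21 and 12.0 TPM), and muscle medians are higher in EC-RNA.

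None of the genes on the 3 neuron lists, of md neuron regulators, general neuronal genes and channels, was in the class present in EC-RNA, and none passed the test. That class held 160 of the 6545 genes above 0 in any of the 4 libraries, so none among lists of 20, 25 and 19 genes is close to that share. The potassium channel gene Shab, on none of the 3 lists, was in the class, at 28.3 and 89.1 TPM in EC-RNA. The list of 20 regulators of md neuron identity and dendrites had no member in the mock-RNA class either (56 of 6545) and 1 that was present in all 4 libraries (249 of 6545). In 11 of 19 tested (57.9%, against 33.9% of all genes), both EC-RNA values exceeded both mock-RNA values, and in 2, Ubx and SoxN (10.5%, against 8.57% of all genes), both lay below. No member had at least 10 reads in both mock-RNA libraries, and 15 of the 20 had at most 3 in each, so these orders rest on few mock-RNA reads. The stress-response transcription factor gene cnc held 365 and 161 TPM in EC-RNA and 7.15 and 9.29 TPM in mock-RNA. The homeobox gene hth held 166 and 280 TPM in EC-RNA and 6.34 and 9.31 TPM in mock-RNA, and the Hox gene abd-A held 227 and 147 TPM against 6.22 TPM and a blank. Both EC-RNA libraries were above both mock-RNA libraries for each of these 3 genes (adjusted p from 0.164 to 0.167, limma).

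Markers of class IV md neurons were at or near 0 in EC-RNA, and the regulator genes ct and ab were far higher in EC-RNA 2 than in EC-RNA 1. The ion channel genes ppk and ppk26, which mark class IV md neurons, were listed at 0 in both mock-RNA libraries. In EC-RNA, ppk26 was also listed at 0 and ppk at 0 and 0.0910 TPM, or 1 read, while ref-RNA held 6.79 and 4.80 TPM of ppk. The class IV transcription factor gene kn held a blank and 4.23 TPM in EC-RNA and 0 in mock-RNA. The homeobox gene ct, expressed at graded levels over md neuron classes, held 0.426 and 45.1 TPM in EC-RNA and a blank and 10.3 TPM in mock-RNA. The class I transcription factor gene ab held 1.24 and 49.8 TPM in EC-RNA and 5.71 and 5.18 TPM in mock-RNA. The class IV channel genes thus do not show md neuron RNA in these libraries, and they mark only 1 md neuron class. They also cannot set EC-RNA apart from mock-RNA, where they were blank and 1 read on 1 kb is worth 11.6 and 21.1 TPM. The share of md neuron RNA in EC-RNA was not tested. The number of cells cannot be told apart from the RNA per cell in such bulk samples. The transcription factor gene ss, a regulator of md neuron dendrites, held 4648 TPM in mock-RNA 1, on 1519 reads, and was listed at 0 in the other 3 libraries.

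Of 25 general neuronal genes, 2 were in the class present in mock-RNA and low in EC-RNA (56 of all 6545 genes above 0). In the opposite class (160 of 6545) there were 0. Both EC-RNA values exceeded both mock-RNA values in 8 of 20 tested (40.0%, near the 33.9% of all genes) and lay below them in 3 (15.0%, against 8.57%). Of these 3, Syt1 and fne passed the filter on mean TPM only through mock-RNA. The neuronal RNA-binding protein gene elav held 32.3 and 331 TPM in EC-RNA, on 595 and 6166 reads, and 2.26 TPM and a blank in mock-RNA. The syntaxin gene Syx1A, which acts in vesicle fusion, held 176 and 289 TPM in EC-RNA and 10.6 TPM and a blank in mock-RNA, and Csp, a chaperone of synaptic vesicles, held 108 and 300 TPM against 8.95 and 16.2 TPM. These 3 had at most 3 reads in any mock-RNA library. The latrophilin gene Cirl held 93.6 and 101 TPM in EC-RNA and a blank and 6.18 TPM, or 1 read, in mock-RNA.

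Channel genes went both ways. Of the 8 tested among 19 channel genes, EC-RNA was wholly above mock-RNA in 4 (against 33.9% of all genes) and wholly below in 3 (37.5%, against 8.57%). The median log2 difference of 2.29 turned to -2.02 without EC-RNA 2 and to -1.05 for genes above 0 in both sample types. The 4 above were the potassium channel genes Sh, slo and SK and the cation channel gene Ih. Of these, Sh held 43.0 and 332 TPM in EC-RNA and 2.91 and 4.51 TPM in mock-RNA. SK and Ih were under 1 TPM in EC-RNA 1 but reached 84.3 and 152 TPM in EC-RNA 2. As 1 read on 1 kb is worth 11.6 and 21.1 TPM in mock-RNA, their order in EC-RNA 1 is not resolved. The filter on mean TPM sets part of both shares, as eag and stj passed it only through mock-RNA and SK and Ih only through EC-RNA 2. The 3 below were eag, stj and Hk.

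These 3 and some neuronal genes had their higher values in mock-RNA. Syt1, the calcium sensor of synaptic vesicles, held 0.168 and 0.444 TPM in EC-RNA and 152 and 53.8 TPM in mock-RNA, on 57.4 and 11.2 reads. The potassium channel gene eag held 0.559 and 0.845 TPM in EC-RNA and 138 and 42.8 TPM in mock-RNA, on 57 and 11 reads. The calcium channel subunit gene stj held 0.326 and 0.191 TPM in EC-RNA and 89.4 and 48.8 TPM in mock-RNA, on 43.3 and 13 reads. Both mock-RNA libraries were above both EC-RNA libraries for all 3 (adjusted p from 0.198 to 0.243, limma), and eag was at 0.515 and 0.240 TPM in ref-RNA. Hk, a potassium channel beta subunit gene, was listed in all 4 libraries, at 84.0 and 38.9 TPM in EC-RNA and 852 and 357 TPM in mock-RNA, and the active zone gene brp held 1.30 and 15.4 TPM against 27.0 and 80.4 TPM. The second neuronal gene of the class, the ELAV family gene fne, held a blank and 0.322 TPM in EC-RNA and 20.7 and 23.6 TPM in mock-RNA.

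**Figure D4:**
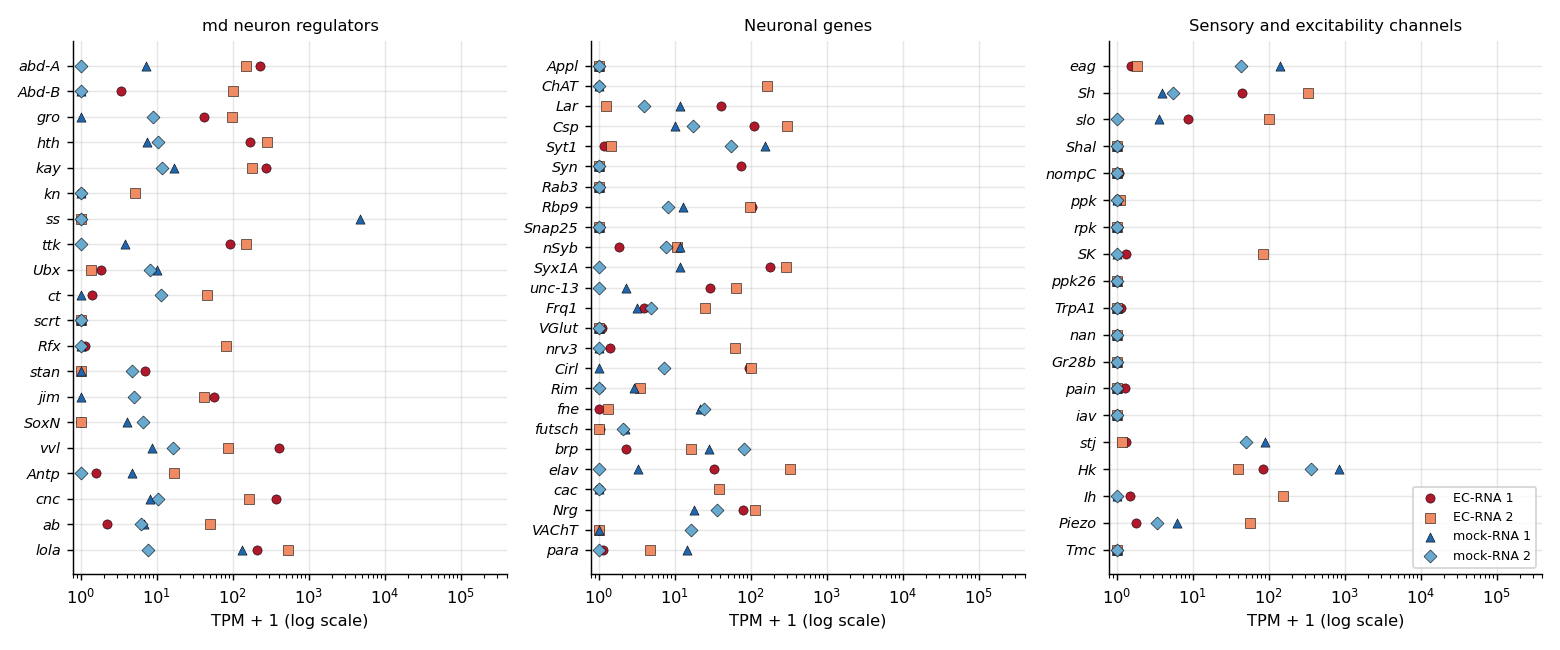
TPM + 1 (x axis, log scale) in each library for 20 md neuron regulators (left), 25 neuronal genes (middle) and 19 sensory and excitability channel genes (right), with blanks at 1. Genes such as cnc, hth and Syx1A show both EC-RNA symbols to the right, Syt1, eag, stj and Hk show both mock-RNA symbols to the right, and ppk and ppk26 sit at the left edge.

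RNA-binding proteins control splicing, transport and translation, and several act in dendrites. Of 28 such genes, 2 were present in EC-RNA and low in mock-RNA (160 of all 6545 genes above 0). Both EC-RNA values exceeded both mock-RNA values in 14 of 26 tested (53.8%, against 33.9% of all genes), and in none did both lie below (against 8.57%). These counts hold for the list alone. Among RNA-binding genes off it, bru2 and Rbfox1 were wholly above, and bru3, Tis11 and fne were wholly below, the last counted with the neuronal genes. The STAR family gene how, which is also on the muscle list, held 836 and 782 TPM in EC-RNA on 3221 and 9566 reads, and 7.45 and 7.26 TPM in mock-RNA, which was 1 read in each library. The hnRNP gene Syp held 250 and 493 TPM in EC-RNA and 1.83 and 3.32 TPM in mock-RNA, also 1 read each. The Fragile X gene Fmr1 held 271 and 538 TPM in EC-RNA and 8.62 TPM and a blank in mock-RNA. These 3 genes had at least 1719 reads in each EC-RNA library and 2 at most in mock-RNA, but none passed (adjusted p = 0.0980 for how, 0.114 for Syp and 0.133 for Fmr1, limma). The 2 in the class were the translational repressor gene pum, at 72.3 and 49.8 TPM in EC-RNA, and the m6A reader gene YT521-B, at 183 and 69.8 TPM. Both were listed at 0 in both mock-RNA libraries.

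Among 23 cytoskeleton and transport genes, the dynein cofactor gene Lis-1 (315 and 134 TPM in EC-RNA) and the kinesin gene Klp10A (121 and 163 TPM) were in the class present in EC-RNA and low in mock-RNA (160 of all 6545 genes above 0). Another 9 were present in all 4 libraries (249 of 6545). In 10 of 22 tested (45.5%, against 33.9% of all genes) EC-RNA was wholly above mock-RNA. In 1, the dynein light chain gene ctp (201 and 671 TPM against 11760 and 2618 TPM in mock-RNA), it was wholly below. The counts are those of the list alone, and cytoskeleton genes off it went both ways. For example, Act5C, cher and Eb1 were wholly above, and Dlic, alphaTub85E, betaTub60D and betaTub85D were wholly below. The list's median log2 difference of 1.66 turned to -0.63 after quantile normalization. Of 19 signaling genes, the ERK kinase gene rl, at 137 and 34.7 TPM in EC-RNA, was the 1 in the class present in EC-RNA and low in mock-RNA. Both EC-RNA values lay above in 7 of 17 tested (41.2%, near the 33.9% of all genes). The kinase gene Raf was the 1 wholly below, at 34.6 and 71.5 TPM in EC-RNA and 160 and 9778 TPM in mock-RNA. The ecdysone receptor gene EcR held 473 and 201 TPM in EC-RNA and 4.86 TPM, or 2 reads, and a blank in mock-RNA. No member of the 3 lists of RNA-binding, cytoskeleton and signaling genes passed the test.

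Most muscle genes also had their higher values in EC-RNA, while cuticle and hemocyte genes went both ways. Of 26 muscle genes, which build the body wall muscles, 23 held at least 10 TPM in all 4 libraries (249 of all 6545 genes above 0). Both EC-RNA values exceeded both mock-RNA values in 18 of 24 tested (75.0%, against 33.9% of all genes and 161 of the 249 genes present in all 4). The median muscle gene held 1226 and 1264 TPM in EC-RNA and 227 and 197 TPM in mock-RNA, and the list's median log2 difference of 1.99 was close to the 1.91 of all genes tested. The muscle LIM gene Mlp84B held 7805 and 6330 TPM in EC-RNA and 144 and 106 TPM in mock-RNA on 28 and 13 reads (adjusted p = 0.0590, limma), and the Z-disc gene Zasp66 held 7191 and 4131 TPM against 135 and 58.5 TPM. The troponin T gene up did not separate, at 1107 and 931 TPM in EC-RNA and 1110 and 904 TPM in mock-RNA. The myosin heavy chain gene Mhc was the 1 member with both mock-RNA values above, at 1466 and 2784 TPM in EC-RNA and 5436 and 3767 TPM in mock-RNA. The actin gene Act57B overlapped, at 16174 and 14723 TPM in EC-RNA and 3091 and 27668 TPM in mock-RNA.

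Glycolytic genes resembled muscle genes, with 8 of 12 present in all 4 libraries (249 of all 6545 genes above 0). Both EC-RNA values lay above in 9 of 12 (75.0%, against 33.9% of all genes and 161 of the 249 genes present in all 4). Gapdh2 held 4785 and 4063 TPM in EC-RNA and 88.8 and 179 TPM in mock-RNA. Of 32 cuticle genes tested, EC-RNA was wholly above in 11 (34.4%, near the 33.9% of all genes) and wholly below in 11 (34.4%, against 8.57%). The larval cuticle gene Lcp1 passed the test, at 11278 and 17399 TPM in EC-RNA and 67.6 and 123 TPM in mock-RNA (log2 difference 7.25 ± 0.87, adjusted p = 0.0334 by limma, with 2 reads in each mock-RNA library), while its relative Lcp4 held 10514 and 19529 TPM against 4039 and 146063 TPM and overlapped. On the hemocyte list of 10 genes, EC-RNA was wholly above in 3 of 7 tested and wholly below in 3 (42.9% each, against 33.9% and 8.57% of all genes). Each class held 1 of the 10. The phagocytosis receptor gene eater held 70.5 and 46.1 TPM in EC-RNA and was listed at 0 in mock-RNA. The collagen IV gene Col4a1 was in the opposite class at 25.7 and 31.0 TPM in mock-RNA, on 12 and 8 reads. The glial marker repo was listed at 0 in all 4 libraries, but 9 of the 12 genes on the list of glia and trachea were above 0 in both EC-RNA libraries. Of 7 tested on it, EC-RNA was wholly above in 3 (42.9%, against 33.9% of all genes) and wholly below in 1 (14.3%, against 8.57%). All 17 gut and salivary gland genes were listed at 0 in mock-RNA, 13 of them in EC-RNA as well. The part of these tissues in the differences was not tested.

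The study's own list of 37 named genes, which it chose on these samples and which is therefore no independent evidence, had 20 members (54.1%, against 33.9% of all genes) with both EC-RNA values above and 1 (2.70%, against 8.57%) with both below, and none passed.

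**Figure D5:**
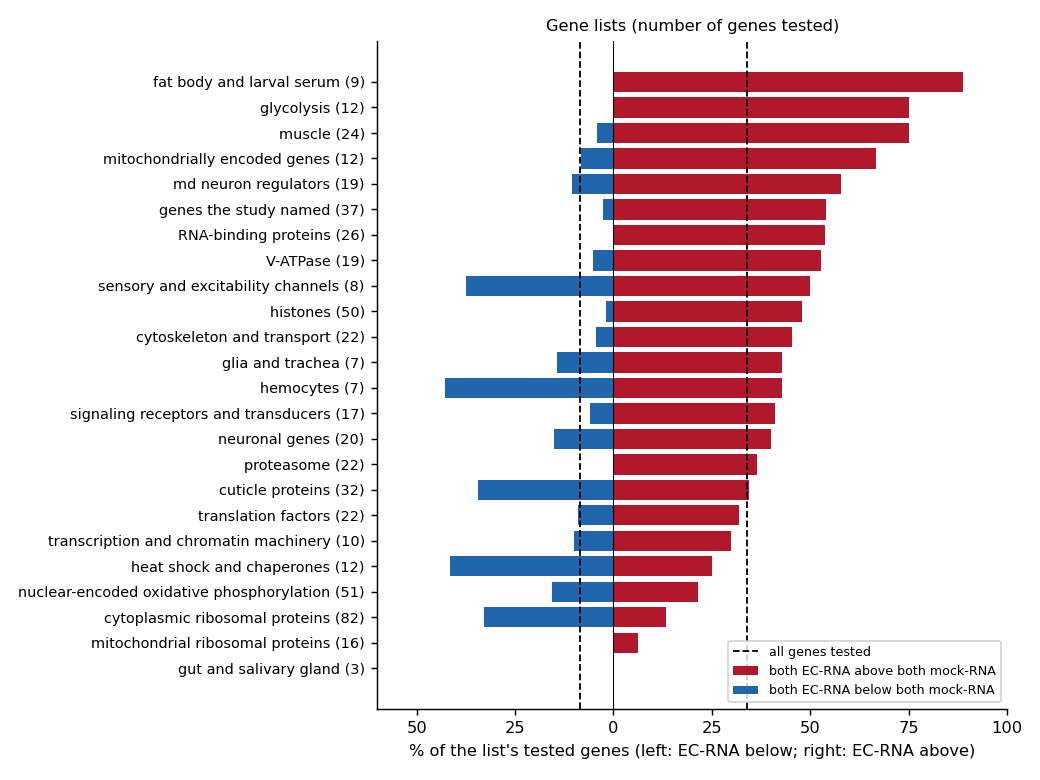
For each gene list, the share of its tested genes with both EC-RNA values above both mock-RNA values (red, to the right) and with both below (blue, to the left), with the number tested in parentheses and dashed lines at the shares of all 4096 genes tested (33.9% and 8.57%). Fat body (88.9%), muscle and glycolysis (75.0% each) reach furthest right, and hemocytes (42.9%), heat shock and chaperones (41.7%), channels (37.5%), cuticle proteins (34.4%) and cytoplasmic ribosomal proteins (32.9%) reach furthest left. A blank in mock-RNA counts as below any EC-RNA value, though 3 reads on 1 kb would be worth 34.9 and 63.2 TPM there.

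The 249 genes present in all 4 libraries were led by transcripts of high abundance in ref-RNA, with a median of 382 TPM in EC-RNA, 85.1 TPM in mock-RNA and 482 TPM in ref-RNA. Both EC-RNA values lay above in 161 (against 33.9% of all genes tested), both below in 31 (against 8.57%), and 57 overlapped. The class is set by the values compared, so these counts are a description. The 5 with the highest lowest value were ribosomal RNA pseudogenes, near copies whose reads pseudo-alignment divides among them, so their single values are uncertain. The 18S pseudogene 18SrRNA-Psi:CR45861 held 27918 and 29579 TPM in EC-RNA and 30740 and 43382 TPM in mock-RNA, and 28SrRNA-Psi:CR45851 held 17094 and 17561 TPM against 43623 and 105265 TPM. All ribosomal RNA pseudogenes together took 8.35% and 9.74% of TPM in EC-RNA and 12.0% and 28.1% in mock-RNA.

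One gene passed the test in the direction of mock-RNA. CG12730 (X, 5516608 to 5518771) held 620 and 557 TPM in EC-RNA, 51078 and 42340 TPM in mock-RNA, and 18.4 and 11.7 TPM in ref-RNA. Mock-RNA was above EC-RNA in both libraries, on 7441 and 3401 reads against 1873 and 4584, and the mean mock-RNA level was 79.3 times that of EC-RNA (log2 difference -6.30 ± 0.75, adjusted p = 0.0334, limma). No role is given for it here.

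At least 10 reads in both mock-RNA libraries were found for 133 genes, a set chosen after the values were seen and by a value compared here. A gene low in ref-RNA can enter it only by being high in mock-RNA, so its counts and levels are a description and carry no finding. EC-RNA was wholly above mock-RNA in 43 (32.3%) and wholly below in 54 (40.6%), and 36 overlapped. The 43 genes above had a median of 2737 TPM in ref-RNA and included 11 muscle genes and 4 mitochondrially encoded genes. The 54 genes below had a median of 16.3 TPM in ref-RNA, where 4 of them were under 1 TPM in both libraries, and a median of 38.3 TPM in EC-RNA and 1071 TPM in mock-RNA.

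Several of these genes, also picked after their values were seen, stood far above ref-RNA in mock-RNA. CG4467 held 109 and 105 TPM in EC-RNA and 1766 and 4749 TPM in mock-RNA, against 0.726 and 0.265 TPM in ref-RNA. CG32547 held 175 and 91.2 TPM in EC-RNA and 2997 and 1326 TPM in mock-RNA, against 0.739 and 0.137 TPM in ref-RNA. The order mock-RNA, EC-RNA, ref-RNA held in every library for both genes, as for CG12730. CG6191 held 26.7 and 46.3 TPM in EC-RNA and 2589 and 3739 TPM in mock-RNA (adjusted p = 0.0626, limma), but 47.2 and 38.1 TPM in ref-RNA, which was close to its level in EC-RNA.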

How the data were processed

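The authors trimmed reads with Trimmomatic, pseudo-aligned them to BDGP6 transcripts with kallisto (versions not given in the sources used here) and deposited TPM per transcript, with blanks, read here as 0. No per-sample column was left without a sample. Transcripts were summed per gene. limma 3.58.1 (R 4.3.3) with a trended prior was fitted to log2(TPM + 1) of genes whose 4 libraries averaged 1 TPM or more, two-sided, with Benjamini-Hochberg adjustment. The fit and the read estimate were tested on simulated data. Reads were estimated from transcript lengths of the BDGP6.54 annotation, which also gave coordinates, and 110 genes had a transcript of no or too short length. Depth is thus an estimate. Edge genes, the 12 and 8 highest genes of the 2 classes by their lower value, the 6 highest shared genes, the 5 smallest p among calls in each direction, and list members were named. Members and lists were chosen with earlier results of these data known. Other values used Python 3.11.15, pandas 2.3.3 and NumPy 2.4.6.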

Additional observations from a re-analysis of the deposited data

How the results depend on the processing

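The number of calls depended on nearly every choice. Against 14 genes higher and 1 lower, the counts were 14 and 2 with no filter, 4 and 1 with a pseudocount of 0.1, 22 and 3 with a pseudocount of 10, 21 and 17 after quantile normalization, 14 and 2 without mitochondrially encoded genes, 8 and 1 without the most abundant genes, 286 and 40 with all 3 sample types in one fit, and 0 and 0 for single transcripts (393 and 107 at an unadjusted p below 0.05) and with an untrended prior (403 and 91). Chosen after seeing the data, median-of-ratios scaling gave 7 and 3, genes above 0 in both sample types 7 and 1, and voom weights on estimated reads 0 and 0. With a replicate block the counts were 157 and 37, but replicate numbers did not pair the libraries (correlation of deviations 0.01 over 4096 genes). Leaving out 1 library gave 0 to 940 higher and 0 to 60 lower.

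The class present in EC-RNA held 1557 genes above 0 against blank, 102 from 50 TPM, 258 single transcripts, and 255 to 846 genes without 1 library. The class present in mock-RNA held 37, 13, 88 and 91 to 306 in the same settings, 16 with EC-RNA blank, and 23 with at least 3 reads in both libraries and past the 3-read floor in EC-RNA, a limit chosen after seeing the data.

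Of 1409 repeats of the difference for 86 genes, 15 changed sign. 18SrRNA-Psi:CR45861 went to 0.32 by quantile normalization and 0.22 without mitochondrially encoded genes, and 18SrRNA-Psi:CR41602 to -0.28 without the most abundant genes, -0.10 by median-of-ratios scaling and, over the libraries left out, between -0.67 and 1.09. sls went to 0.13 without mitochondrially encoded genes and ran from -0.87 to 0.00421 without 1 library, and up went to -1.13, -0.47 and -0.29 by quantile normalization, without the most abundant genes and by median-of-ratios scaling, and ran from -0.13 to 0.17 without 1 library. Without 1 library, Lcp4 ran from -3.35 to 1.83, mt:ATPase6 from -0.73 to 6.14 and Act57B from -0.84 to 2.32, each range being set by which mock-RNA library was left out. The cause was not tested.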

Other observations

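Some mock-RNA genes were high in 1 library alone. At least 100 reads in 1 mock-RNA library and none in the other were found for 34 genes, 27.4% of the 124 genes with at least 100 reads in either. ATPsynD, a subunit gene of ATP synthase, held 37495 TPM in mock-RNA 1 on 1598 reads, a blank in mock-RNA 2, and 1.13 TPM and a blank in EC-RNA. Cchl, which encodes a cytochrome c heme lyase, held 23.5 TPM on 2 reads in mock-RNA 1 and 45303 TPM on 2130 reads in mock-RNA 2. In EC-RNA, 533 genes had at least 100 reads in 1 library and none in the other, 19.9% of 2679. These genes were chosen after their values were seen, and the cause was not tested.

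Proteasome and mitochondrial ribosomal protein genes were close to unmeasured in mock-RNA, as were most genes. Of the 6545 genes above 0 in any of the 4 libraries, 3611 were blank in both mock-RNA libraries. Of those above 0 in mock-RNA 1 and 2, 76.9% and 79.1% had at most 3 reads, so the counts below are no trait of these families. All 47 proteasome genes and all 73 mitochondrial ribosomal protein genes had at most 3 reads in each mock-RNA library, and 2 of the former and 0 of the latter had at least 10 reads in both EC-RNA libraries. The proteasome subunit gene Prosbeta2 held 361 and 52.3 TPM in EC-RNA and was listed at 0 in mock-RNA, while Prosbeta7 held 412 TPM and a blank in EC-RNA. Of 124 histone genes, whose near-identical copies share reads, 122 had at most 3 reads in each mock-RNA library.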
